A study of Mus musculus with 12 samples.

Results

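The 9 transcripts described here are Krt79, Ly6d, Cyp2g1, Sdr16c6, Hsd3b6, Acoxl, Akr1c18, Serpina3b and Serpina3j, 9 of the 30154 genes measured by bulk RNA sequencing of mouse muscle stem cells. They were chosen by symbol because, in these same libraries, they were found in wild type and were nearly absent from knockout at days 0 and 7. Their genotype differences at those days are therefore given as a description, and only day 21 was tested. The study followed muscle stem cells, the cells that rebuild muscle fibres, through injury in C57BL/6J mice of 2 to 3 months. One genotype was wild type and the other lacked both Sestrin1 and Sestrin2, stress-induced proteins that restrain growth signalling through mTORC1. Hind limb muscles (quadriceps, gastrocnemius and tibialis anterior) were dissected and the cells sorted before injury (day 0) and 7 and 21 days after it. Each of the 6 groups has 2 libraries, and the controls carry neither deletion. Kind of injury, sex, sort markers and dissection batch are not in the labels, which also do not say which mice gave which library, so p-values measure the spread between libraries, which may be technical.

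Sebaceous glands sit beside hair follicles. Their cells fill with lipid and then burst to release it. The follicle and the epidermis around them are built of keratinocytes, whose basal layer is known for the keratins Krt5 and Krt14 and whose inner root sheath, the sleeve around a growing hair, is known for Krt25, Krt27, Krt28, Krt71 and Krt73. Several of the 9 genes are known from such epithelia or from steroid-making glands, and none is a known marker of muscle stem cells. In bulk RNA, fewer cells of a type and less RNA per cell cannot be told apart.

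Library totals ran from 28396900 to 38950600 estimated counts, and 17292 to 18142 genes had counts in a library. Pax7, Myf5 and the other 12 of 14 muscle stem cell markers had counts in every library. The targeted gene Sesn2 is given in CPM, which are counts relative to each library's scaled total. Before injury it had 75.1 and 84.3 CPM in wild type against 5.47 and 7.03 without Sestrins, and a week later 44.9 and 47.4 against 2.36 and 1.92. At day 21 it went against 2 labels: it was at 8.92 in the first library labelled wild type and at 108 in the second library labelled knockout, beside 82.1 and 9.86 in the others. Sesn1, the other targeted gene, still had reads in the knockout libraries, at 46.0 and 45.8 CPM against 70.3 and 68.6 in wild type before injury, and at 28.4 and 22.4 against 84.0 and 67.9 at day 7. On day 21 it had 43.7 and 78.3 CPM under the wild-type label and 41.7 and 67.2 under the knockout label. Day 21 is therefore given library by library as well as by label.

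Before injury, 8 of the 9 transcripts had 0 counts in both knockout libraries and 34 to 856 counts in the wild-type ones. A count of 0 allows up to 3 counts, which is 0.0912 and 0.110 CPM in these 2 libraries. Krt79 was the exception. By genotype, the libraries did not overlap for 9 of 9 transcripts, which were lower in knockout, as were 37.1% of all 15890 genes tested. The fit with edgeR called 8 of 9 at an adjusted p under 0.05, where it called 12.6% of all genes lower. Nothing is read from either count, since these values chose the transcripts. At day 7 the libraries again did not overlap for 9 of 9, beside 23.1% of all genes, and 2 of 9 (Cyp2g1 and Serpina3j) were called, beside 0.680%. Nothing is read from these counts either. Together the 9 summed to 62.4 and 63.6 CPM in wild type before injury, against 1.37 and 1.44 CPM for knockout, the latter all Krt79.

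**Figure D1:**
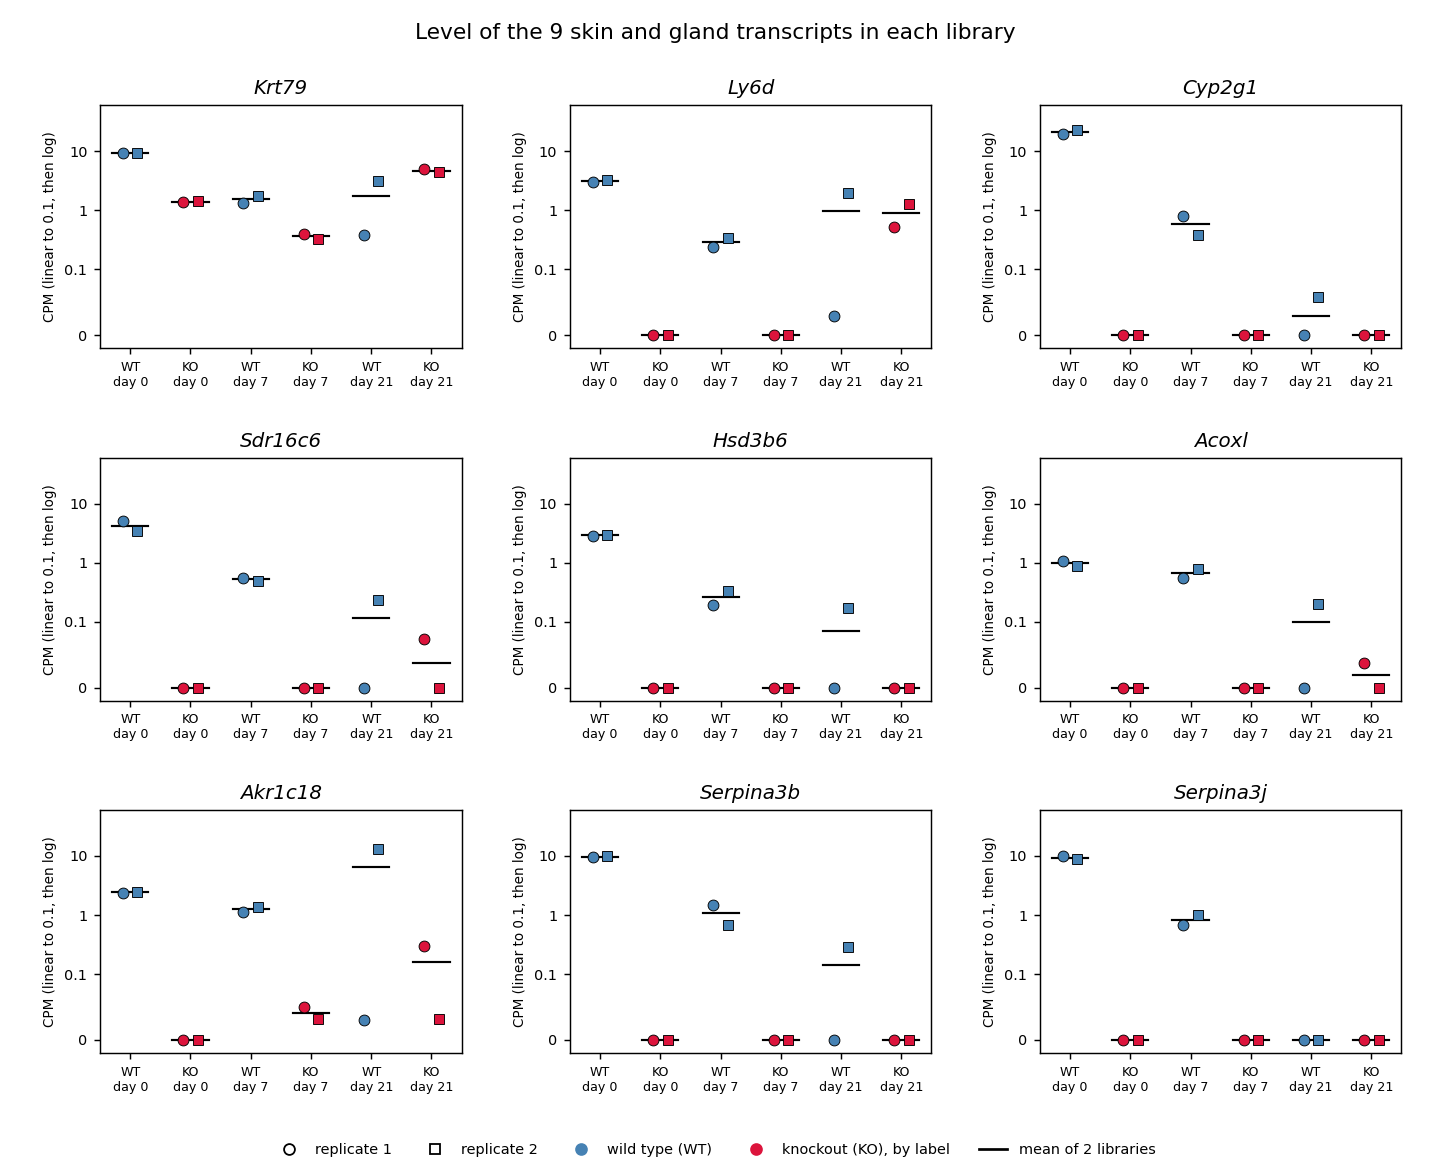
Level of each of the 9 transcripts in CPM (vertical axis, linear up to 0.1 and logarithmic above) in the 12 libraries, grouped by labelled genotype and day. Circles and squares are replicates 1 and 2 and bars are means of 2 libraries. At days 0 and 7 wild type lies above knockout in each panel, Krt79 is the only transcript with counts in knockout at day 0, and at day 21 replicate 2 labelled wild type lies above replicate 1 in every panel but that of Serpina3j.

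Krt79 and Ly6d are the surface and structural members. Krt79 (ENSMUSG00000061397, GRCm38 chr15:101929332-101940324, minus strand) encodes a type II keratin known from the upper hair follicle and the ducts of sebaceous glands. At day 0 its counts were 300 and 350 in wild type against 45 and 39 in knockout, and at day 7 they were 55 and 68 against 16 and 10. Mean CPM was 6.63-fold higher in wild type at day 0 and 4.24-fold higher at day 7, so Krt79 was lower in knockout on both days but was measured in every library. Ly6d (ENSMUSG00000034634, chr15:74762056-74763620, minus strand) encodes a membrane-anchored protein of the Ly6 family found on keratinocytes and early B cells. It had 97 and 124 counts in wild type at day 0 and 10 and 13 at day 7, with 0 in all 4 knockout libraries of those days. That was at least 31.2-fold higher at day 0 and at least 3.33-fold higher at day 7, against a floor of 3 counts per library.

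Other type II keratins were low in knockout as well. Of 20 listed, 8 were tested and 4 fell at day 0, namely Krt5, Krt71, Krt73 and Krt75, and none rose, beside 12.6% of all genes tested called lower. For all 8 both knockout libraries lay below both wild-type ones, as for 37.1% of all genes tested, and the list summed to 124 and 122 CPM in wild type against 5.65 and 4.86. At day 7 and day 21 none of the 8 was called by edgeR. Of 15 Ly6 relatives, 9 were tested and none was called on any day. Ly6k, close to Ly6d on chromosome 15, had 26 and 27 counts in wild type against 5 and 5 at day 0 (log2 fold change -2.16, adjusted p = 0.185, edgeR).

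Cyp2g1, Sdr16c6, Hsd3b6, Akr1c18 and Acoxl are enzymes of steroid, retinoid or lipid chemistry. Cyp2g1 (ENSMUSG00000049685, chr7:26808892-26821205, plus strand), a cytochrome P450 known from the olfactory mucosa, had the most reads of the 9 at day 0. Its counts were 617 and 856 in wild type at day 0 and 33 and 15 at day 7, with 0 in the 4 knockout libraries. The day 0 level was at least 208-fold higher in wild type. Sdr16c6 (ENSMUSG00000071019, chr4:4055929-4077522, minus strand) encodes a short-chain dehydrogenase that acts on retinol and belongs, with its neighbour Sdr16c5, to the lipid chemistry of skin glands. It had 161 and 131 counts in wild type at day 0 and 23 and 19 at day 7, against 0 in knockout, which is at least 42.1-fold and at least 6.03-fold higher.

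Hsd3b6 (ENSMUSG00000027869, chr3:98805504-98814443, minus strand) encodes a 3-beta-hydroxysteroid dehydrogenase, a step in making progesterone and other steroids, and is known from the adrenal gland and testis. It had 92 and 111 counts in wild type at day 0 and 8 and 13 at day 7, with 0 in knockout. Akr1c18 (ENSMUSG00000021214, chr13:4132615-4150654, minus strand) acts at the other end of that chemistry, as the enzyme that inactivates progesterone in the ovary. Its counts were 77 and 93 against 0 and 0 at day 0, and 48 and 54 against 2 and 1 at day 7. Acoxl (ENSMUSG00000027380, chr2:127838876-128123873, plus strand) encodes a protein that resembles the peroxisomal acyl-CoA oxidases, which start the shortening of fatty acids. At day 0 it had the fewest counts of the 9 in wild type, 34 and 34. At day 7 it had 23 and 30, and on both days 0 in knockout.

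The pathways around these enzymes held calls in both directions. Of 19 tested genes of steroid and prostaglandin metabolism, 3 fell and 4 rose in knockout at day 0, where 12.6% of all genes were called lower and 14.8% higher. Hsd11b1, which reactivates glucocorticoids, fell by 0.88 on the log2 scale (SE 0.16, adjusted p = 0.00405, edgeR), and Star, which brings cholesterol into mitochondria, rose by 1.66 (SE 0.46, adjusted p = 0.0236). Among 10 Sdr16c and retinol dehydrogenase relatives, 3 fell at day 0 (Sdr16c5, Dhrs9 and Rdh5) and Rdh9 rose. Of the Cyp2 relatives tested, Cyp2b19 and Cyp2s1 fell and Cyp2f2 rose. Akr1c14, beside Akr1c18 on chromosome 13, was not called at day 0 but fell by 2.98 at day 7 (adjusted p = 0.00104, edgeR), from 1752 and 1454 counts in wild type to 202 and 154 in knockout. Among the relatives and pathway genes listed, Akr1c14 was the only one called at day 7.

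Serpina3b (ENSMUSG00000066364, chr12:104127996-104139545, plus strand) and Serpina3j (ENSMUSG00000079013, chr12:104314553-104320725, plus strand) are secreted inhibitors of serine proteases from a cluster that expanded in rodents. Serpina3b had 305 and 378 counts in wild type at day 0 and 62 and 26 at day 7. Serpina3j had 316 and 336 counts, then 28 and 39. Both were at 0 in the 4 knockout libraries, so wild type was at least 96.7-fold and at least 92.9-fold higher at day 0, and at least 12.5-fold and at least 9.72-fold higher at day 7. Their widely expressed relative Serpina3n was in every library, with 535 and 631 counts in wild type against 799 and 698 at day 0 (log2 fold change 0.58, adjusted p = 0.145, edgeR), and none of the 3 Serpina3 relatives tested was called on any day.

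Reads could be shared between some of these genes and near copies. Of the 31-base words of the GENCODE transcripts of Hsd3b6, 29.1% also occur in other genes, mostly Hsd3b2, Hsd3b3 and Hsd3b1, so its level is uncertain. The share was 11.5% for Serpina3j, 7.99% for Serpina3b, 6.87% for Cyp2g1, 4.15% for Akr1c18, 0.252% for Krt79 and 0 for the other 3. Hsd3b1 had 0 counts in all libraries and Hsd3b3 at most 2, while Hsd3b2 had 10 to 67 counts in each of them, in both genotypes.

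RefSeq promoters on GRCm38.p6 were matched by symbol for 7 of the 9 genes, and those of Ly6d and Cyp2g1 are not analysed here. The 300 bases around each start, 250 before and 50 after, were searched on both strands for 4 short words. The sequences below show 3 of these words near a start and are given because the genes varied together across libraries. Capitals mark AGAACA, a half-site of steroid hormone receptors (TGTTCT where it lies on the other strand), TATAAA, the core of a TATA box, and GATAAAAAG, a run picked after reading the sequences. No 2 marked words overlap. The first 2 sequences are the 250 bases before the start of Hsd3b6 (chr3:98814444-98814693, minus strand) and of Serpina3b (chr12:104127746-104127995, plus strand), and the third is the stretch of 29 bases just after the start of Krt79 (chr15:101940275-101940303, minus strand) that holds the run.
Hsd3b6: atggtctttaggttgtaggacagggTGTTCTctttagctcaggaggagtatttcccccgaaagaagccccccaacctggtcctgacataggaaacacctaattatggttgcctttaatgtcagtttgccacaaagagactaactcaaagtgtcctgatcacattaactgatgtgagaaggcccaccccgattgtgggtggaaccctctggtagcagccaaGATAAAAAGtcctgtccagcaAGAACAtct
Serpina3b: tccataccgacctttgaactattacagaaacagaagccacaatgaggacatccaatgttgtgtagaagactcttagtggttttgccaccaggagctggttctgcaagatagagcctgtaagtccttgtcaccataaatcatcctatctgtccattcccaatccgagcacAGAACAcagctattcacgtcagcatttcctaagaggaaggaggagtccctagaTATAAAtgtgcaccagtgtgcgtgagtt
Krt79: gctgggaaaaGATAAAAAGgtgtttggtg
AGAACA was found in 4 of the 7 promoters, those of Hsd3b6, Sdr16c6, Serpina3b and Serpina3j, and in 19.0% of all 32851 promoters of the table. In these 4 it begins 9, 22, 81 and 12 bases before the start, and Hsd3b6 has it again 225 bases before. TATAAA was in 1 of the 7, Serpina3b, 28 bases before the start, and in 13.6% of all. GATAAAAAG was in 2 of the 7, Hsd3b6 and Krt79, and in 0.265% of all. AGGTCA, a half-site of other nuclear receptors, was in 1 of the 7, Akr1c18, and in 16.3% of all. A match is a description of the letters only.

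Compared per transcript length, in TPM, the order of the levels in wild type at day 0 was Cyp2g1 at 15.2 ± 1.60 (SD, n = 2), Ly6d at 8.22 ± 0.389, Serpina3b at 6.39 ± 0.156, Krt79 at 6.01 ± 0.0995 and Serpina3j at 5.86 ± 0.488. Below these came Akr1c18 at 3.15 ± 0.0414, Sdr16c6 at 3.04 ± 0.817, Hsd3b6 at 2.41 ± 0.0968 and Acoxl at 0.957 ± 0.311. The ranges of Krt79 and Serpina3j overlapped, as did those of Akr1c18 and Sdr16c6 and of Sdr16c6 and Hsd3b6, so these neighbours did not differ beyond their spread. Krt14 was at 60.4 TPM and Krt17, a keratin of the follicle, at 93.2 TPM in the same libraries.

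From day 0 to day 7 the wild-type level of the 9 dropped by different amounts. Cyp2g1 kept 2.81% of its mean CPM, Serpina3j 8.96%, Hsd3b6 9.09%, Ly6d 9.13%, Serpina3b 11.1%, Sdr16c6 12.3% and Krt79 16.5%. Akr1c18 kept 52.4% and Acoxl 67.7%, and for Acoxl the libraries of the days lay closest, at 1.06 and 0.897 CPM before injury and 0.550 and 0.776 after. The median over the 9 was 11.1%, where the median over 13106 tested genes at 1 CPM or more in wild type at day 0 was 102%. That each was still found at day 7 was part of how the 9 were chosen. This change between days was not tested.

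Day 21 was the contrast that the rule for choosing the transcripts did not name. Several of the 9 had too few counts on that day for a call to be likely: Serpina3j had 0 counts in all 4 libraries, Cyp2g1 2 in total, Hsd3b6 6, Acoxl 8, and in a fit on the day 21 libraries alone only 2 of the 9 passed the filter on low counts. All 9 were tested because the filter used all 12 libraries, and the wild-type counts of day 0 were enough for each to pass. By label, edgeR called 0 of the 9 at an adjusted p under 0.05, beside 0.0126% of all genes tested, and 1 had an unadjusted p under 0.05. DESeq2 gave an adjusted p for Cyp2g1 alone (0.554, DESeq2), so it could not call the others. Unadjusted, 2 of the 9 were under 0.05 with DESeq2. Non-overlapping libraries were found for 1 of 9, Krt79, which was higher in knockout, as were 19.0% of all genes. Krt79 had 13 and 107 counts under the wild-type label and 136 and 141 under the knockout label (log2 fold change 1.44, SE 0.65, adjusted p = 0.354, edgeR). Akr1c18 had 1 and 456 counts against 8 and 1 (log2 fold change -5.36, SE 1.98, adjusted p = 0.297, edgeR). Ly6d had 1 and 67 counts against 14 and 40, so its groups overlapped (log2 fold change -0.14, adjusted p = 0.977, edgeR). The differences of Krt79 and Akr1c18 turned on single libraries. Without the second library labelled wild type their log2 fold changes were 3.61 and 2.29, and without the first they were 0.61 and -6.36. Each of these fits leaves 1 library under the wild-type label, which is assumed to vary like the other groups. Without the second, the library left is the one whose Sesn2, at 8.92 CPM, goes against that label.

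The other 6 transcripts were close to nothing at day 21. Cyp2g1, Sdr16c6, Hsd3b6, Acoxl, Serpina3b and Serpina3j, grouped after their values were seen, had 0 counts together in the first library labelled wild type and 33 in the second. In the libraries labelled knockout they had 3 and 0. Serpina3j had 0 in all 4. Read against Sesn2, which was low in the first library labelled wild type and the first labelled knockout, the 33 counts lay in a library with high Sesn2 and the 3 in one with little, while the library labelled knockout with the highest Sesn2 had 0 of the 6, 141 counts of Krt79 and 40 of Ly6d. No regrouping by Sesn2 was tested.

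Markers of skin were read beside the 9, since such RNA in the dissected muscle is one possible source of them. At day 0 more of them were called lower in knockout than higher in each of 4 lists, but not all were called. The 4 lists were sebaceous gland, basal keratinocyte, suprabasal keratinocyte and hair follicle, and edgeR called 12.6% of all tested genes lower and 14.8% higher. Hair follicle genes fell in knockout for 12 of 14 tested, and none rose. Their summed level was 240 and 259 CPM in wild type against 12.9 and 13.5, and 12 of the 19 listed genes in the table were at 0 in both knockout libraries. Krt71, a keratin of the inner root sheath, had 1536 and 1822 counts in wild type and 0 in both knockout libraries, and its partner Krt25 had 602 and 821 against 0 and 0. Krt17 had 3036 and 4017 against 0 and 0. Krt28 had 706 and 945 against 8 and 8 (log2 fold change -6.44, adjusted p = 0.000235, edgeR).

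Basal keratinocyte genes fell in 9 of 13 tested and 1 rose. Krt14 had 2038 and 2640 counts in wild type but 0 in both knockout libraries, Krt5 had 1307 and 1570 against 0 and 0, and Krt15 had 2672 and 3364 against 0 and 0. Sfn, a protein of stratified epithelium, had 2133 and 2618 against 11 and 12. The defining keratins of the basal layer were therefore at 0 in the knockout libraries in which 8 of the 9 transcripts were at 0. Dst, which links keratin filaments to the cell base and is also made in muscle and nerve, rose by 0.76 (adjusted p = 0.00258, edgeR). The summed level of this list was 687 and 702 CPM against 539 and 581. In knockout nearly all of it came from Dst, Itgb4 and Perp, with 2702 or more counts in each day 0 library.

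Suprabasal genes fell in 9 of 13 tested and none rose, with summed levels of 51.4 and 52.1 CPM in wild type against 13.5 and 15.1. Dmkn had 246 and 262 counts against 0 and 0, and Sprr1a, of the cornified envelope, 51 and 64 against 0 and 0. Krt1, the keratin that defines this layer, had only 1 and 4 counts in wild type. Of 20 sebaceous gland genes tested, 9 fell and 1, Gldc, rose. Scd3 had 154 and 135 counts against 3 and 3, Sdr16c5 had 60 and 75 against 0 and 0, and Awat1, which makes the wax esters of sebum, 40 and 38 against 0 and 0. Elovl4, which makes very long fatty acids, had 890 and 874 against 142 and 114. Lipid genes that many cells express were present in both genotypes: Scd1 had 3633 and 4251 counts against 3660 and 3223, and the summed level of the list was 679 and 675 CPM against 630 and 640. Where a day 0 library was left out, fewer genes passed, with as few as 5 of the sebaceous gland genes, 6 basal, 5 suprabasal and 8 hair follicle genes.

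**Figure D2:**
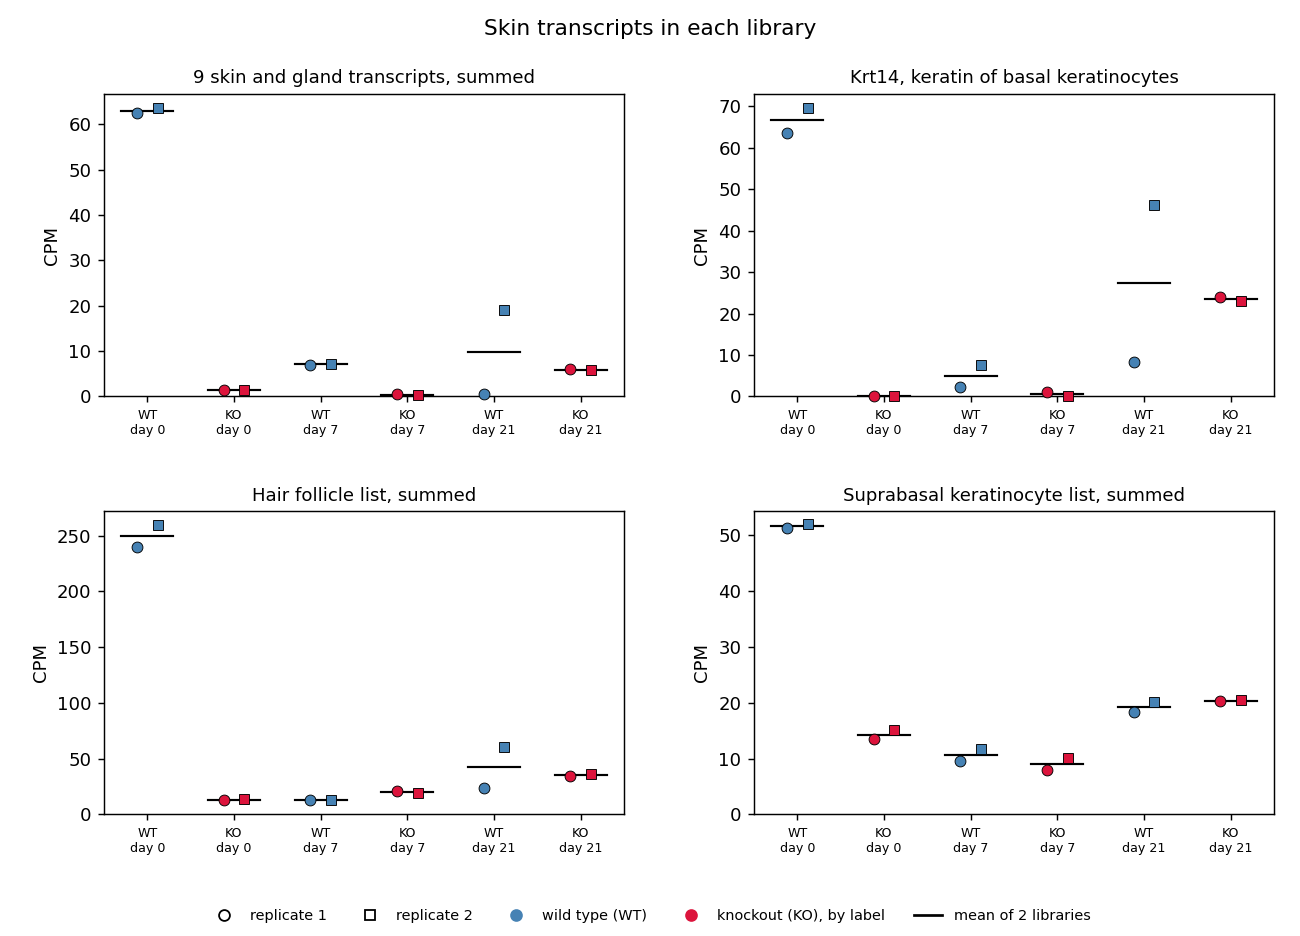
Level in CPM (vertical axes, from 0) of the 9 transcripts summed, of Krt14, and of the hair follicle and suprabasal keratinocyte lists summed, in the 12 libraries by labelled genotype and day, with bars for means of 2 libraries. All 4 panels are highest in wild type at day 0. At day 7 the hair follicle list was at 12.6 and 12.9 CPM in wild type against 20.5 and 19.1. Within that wild-type sum Lgr5 had a mean of 6.57 CPM and Tchh 2.63, while Krt25 and Krt27 were at 0 and Krt71 at 0.0129. The 9 transcripts were at 6.94 and 7.16 against 0.451 and 0.357.

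Other lists were read at day 0 too, where edgeR called 12.6% of all tested genes lower in knockout and 14.8% higher. Nothing is read from a list with 1 gene called in a direction. Of 6 red blood cell genes, 5 fell, with summed levels of 902 and 908 CPM in wild type against 229 and 213. Of 14 muscle stem cell genes, 9 fell, with 3588 and 3581 CPM against 2815 and 2863. Of 10 fibro-adipogenic genes, 3 fell and none rose, with summed levels of 15851 and 16065 CPM against 8830 and 9294. At day 7, 2 of these 10 fell, as did 2 of the 14 muscle stem cell genes, where 0.680% of all genes were called lower. On that day 1 pericyte and smooth muscle gene and 1 Schwann cell gene rose, beside 1.76% of all genes called in either direction. Back at day 0, 1 of 9 monocyte and macrophage genes rose, with 1775 and 1807 CPM against 2944 and 2909. Of 8 pericyte and smooth muscle genes, 4 rose. Of 5 melanocyte genes tested, 3 rose. Among 7 genes of steroidogenic tissue, Cyp21a1 fell and Star rose, and of 8 adipocyte genes 1 rose. Of 12 genes of simple and glandular epithelium, 2 fell and 3 rose, with summed levels of 57.1 and 62.0 CPM against 61.7 and 59.5. Of 8 endothelial and 7 Schwann cell genes, 1 and 2 rose, and of 6 tenocyte and 5 tested B cell genes 1 of each fell. Genes of the milk-secreting gland summed to 0.656 and 1.03 CPM in wild type against 2.16 and 1.91 at day 0. Of these, Csn1s1 and Csn2 had 0 counts in all libraries. The part of skin, blood or other cell types in the day 0 difference of the 9 transcripts was not tested.

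At day 7 the skin lists and the 9 transcripts did not show the same picture. None of the 60 genes tested in the 4 skin lists was called lower or higher by edgeR, where 1.76% of all genes were called. To set genes with 0 counts beside the others, 0.1 CPM was added to each mean before taking the ratio of knockout to wild type. On that log2 scale the 9 had a median of -5.02 at day 0 and -2.78 at day 7, and all 9 lay below -1 on both days. Hair follicle genes had a median of -4.67 at day 0 and 0.27 at day 7, with 13 and then 1 of 14 below -1. A gene under 0.1 CPM in wild type cannot lie below -1 on this scale. Several hair follicle genes were there at day 7, such as Krt25 and Krt27 at 0 and Krt71 at 0.0129 CPM. Their day 7 ratios therefore could not show a lower level in knockout. Medians at day 7 were -0.09 for basal keratinocyte genes (4 of 13 below -1), -0.18 for suprabasal genes (3 of 13) and -0.14 for sebaceous gland genes (1 of 20). Over all genes tested the median was 0.00 on both days, with 8.80% and 2.69% below -1. The 9 were selected for being low in knockout at day 7, and the lists were not, so this contrast between them is in part built in and carries no test.

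**Figure D3:**
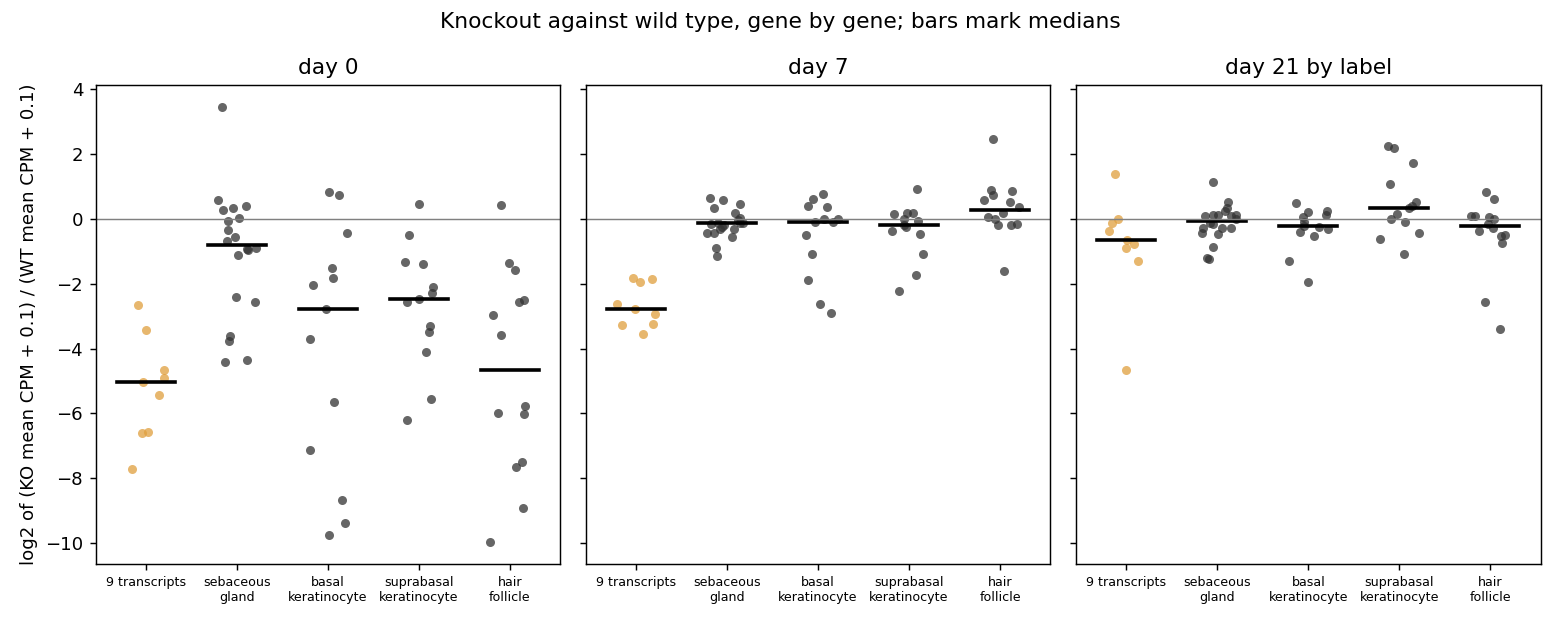
Ratio of knockout to wild type for each gene, as log2 of mean CPM plus 0.1 (vertical axis), at days 0, 7 and 21 by label, for the 9 transcripts (orange) and the tested genes of 4 skin lists (grey), with bars for medians. At day 0 all 5 sets have medians below 0. At day 7 the 9 transcripts lie between -3.56 and -1.82, and the medians of the skin lists lie between -0.18 and 0.27.

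Individual keratins at day 7 differed in direction, and none was called. Krt14 had 97 and 298 counts in wild type against 42 and 4, and Krt15 had 29 and 222 against 23 and 9 (log2 fold changes -2.98 and -2.82, adjusted p = 0.297 and 0.308, edgeR). Krt5 overlapped between genotypes, with 1 and 80 counts against 17 and 0, as did Krt17, with 11 and 18 against 36 and 14. Of the 13 basal genes, 3 were lower in knockout with no overlap, beside 23.1% of all genes tested, and 2 were higher. Of 20 sebaceous gland genes 9 were lower with no overlap and 3 higher. Of 13 suprabasal genes 4 were lower and 1 higher, and of 14 hair follicle genes 0 and 6. Krt71 had 0 and 1 count in wild type, after 1536 and 1822 at day 0. In wild type Krt14 kept 7.52% of its day 0 level at day 7, Krt5 2.54%, Krt17 0.363% and Krt71 0.0269%. The median over the 12 hair follicle genes at 1 CPM or more in wild type at day 0 was 0.462%, over 13 basal genes 7.52%, over 10 suprabasal genes 6.44% and over 16 sebaceous gland genes 58.9%. The sebaceous gland genes ran from 1.24% (Sdr16c5) to 289% (Soat1), with Scd3 at 3.88%, Awat1 at 10.9%, Scd1 at 35.0% and Plin2 at 121%. Wild-type counts at day 7 helped to choose the 9 but not the lists, so the shares that the 9 kept cannot be compared with these.

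The 6 transcripts Cyp2g1, Sdr16c6, Hsd3b6, Acoxl, Serpina3b and Serpina3j were set beside Krt14 in each library. In wild type at day 0 there were 74.8 and 69.9 counts of the 6 per 100 counts of Krt14. At day 7 there were 182 and 47.7, on both sides of the day 0 values, and in knockout 0 and 0, with only 42 and 4 counts of Krt14. At day 21 the first library labelled wild type had 0 per 100, with 279 counts of Krt14, the second had 2.06, and the libraries labelled knockout had 0.464 and 0, although they held 647 and 734 counts of Krt14. The day 21 libraries labelled knockout had Krt14 at 23.9 and 23.1 CPM, Krt79 at 5.02 and 4.44 CPM and almost none of the 6. The knockout libraries of day 0 had Krt79 at 1.37 and 1.44 CPM with Krt5, Krt14, Krt15 and Krt17 at 0 counts. The 6 were grouped because they were near 0 at day 21, so their low ratio on that day restates the grouping. All 9 together had 15 and 663 counts under the wild-type label at day 21 and 161 and 182 under the knockout label, beside 279 and 1602, then 647 and 734, of Krt14.

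**Figure D4:**
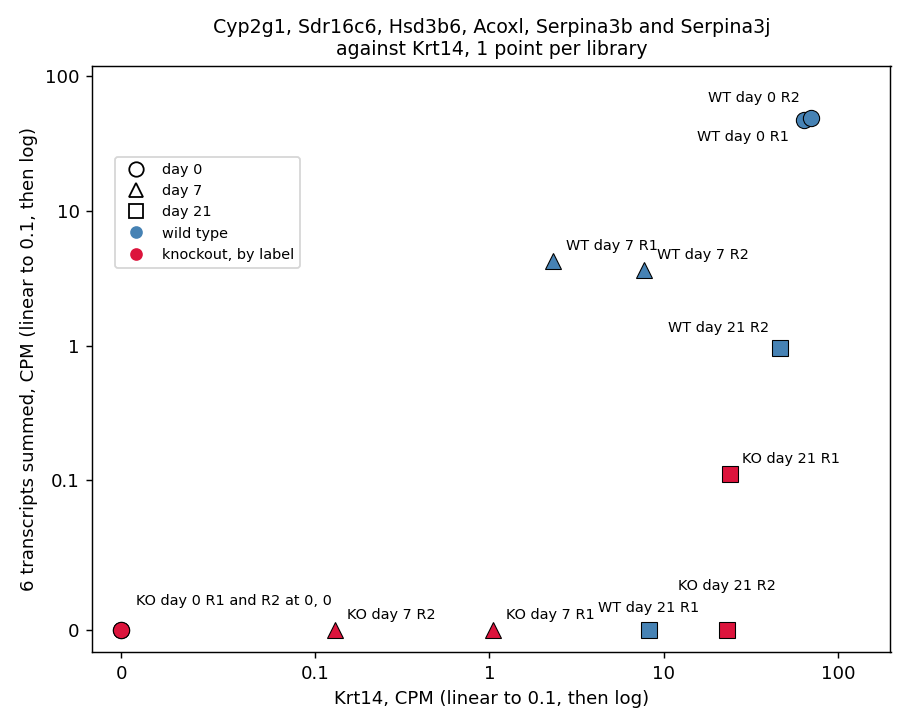
Summed CPM of Cyp2g1, Sdr16c6, Hsd3b6, Acoxl, Serpina3b and Serpina3j (vertical axis) against CPM of Krt14 (horizontal axis), 1 point per library, both axes linear up to 0.1 and logarithmic above. Shapes are days, blue is wild type and red is knockout by label. The wild-type libraries of day 0 are at the upper right, and the day 21 libraries labelled knockout have Krt14 at 23.9 and 23.1 CPM with the 6 transcripts at 0.111 and 0 CPM.

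Across the 12 libraries the 9 transcripts varied together. Pearson correlations of log2 CPM over the 36 pairs ran from 0.576 to 0.986, with a median of 0.789, and the 6 transcripts above had 0.886 to 0.986 among themselves. These points share libraries, depth and the 2 high libraries of day 0, and the choice on days 0 and 7 fixes much of these correlations. The genes outside the 9 whose pattern was most like their mean were Ugt1a1 at 0.972, which attaches glucuronic acid to bilirubin and steroids, Cmtm8 at 0.928, Cyp2b19 at 0.923, Awat1 at 0.918, Aldh3b2 at 0.913 and Dmkn at 0.910. Adtrp, Gm4540, Arl3 and Arhgap25 followed, at 0.907 to 0.891. Ugt1a1 had 128 and 147 counts in wild type at day 0 and 26 and 43 at day 7, 0 in the 4 knockout libraries of those days, and 19 in the second library labelled wild type at day 21. Cyp2b19, a P450 of keratinocytes next to Cyp2g1, had 46 and 34 counts, then 9 and 1, and 0 in knockout. In all 91 genes outside the 9 had a correlation above 0.8.

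How common such an on and off pattern was can be counted. With at least 30 counts in both libraries of one genotype and at most 3 in both of the other, 96 genes were found in wild type alone at day 0 and 23 in knockout alone, the limits being set after the data were seen. With at least 10 counts, 42 were found in wild type alone at day 7 and 20 in knockout alone. Found in wild type alone on both days were 9 genes, which is 9.38% of the 96 and 21.4% of the 42, and 7 of these 9 were among the transcripts described here. The other 2 were Ugt1a1 and Gm28438. Found in knockout alone on both days was 1 gene.

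Most genes next to the 9 on the chromosome were at 0 counts, too low to test or not called. Of the 36 nearest protein-coding neighbours, 2 on each side, 7 had 0 counts in all libraries and 16 were tested. At day 0, edgeR called 3 lower in knockout, namely Cyp2b19, Sdr16c5 and Gm11808, and 2 higher, Penk and Bcl2l11, beside 12.6% lower and 14.8% higher over all genes. At day 7 it called 1 lower, Akr1c14, and 1 higher, Penk, beside 0.680% lower and 1.76% in either direction over all genes. Penk, which makes an opioid peptide precursor, had a log2 fold change of 1.89 (adjusted p = 0.0178, edgeR). Sdr16c5 lies 36266 bases from Sdr16c6, and Cyp2b19 lies 36262 bases from Cyp2g1, and both had 0 counts in knockout at day 0. Bcl2l11, which begins 2165 bases past the end of Acoxl and promotes cell death, had 696 and 827 counts in wild type against 1063 and 939 (log2 fold change 0.62, adjusted p = 0.0210). The cluster neighbours Serpina3k, Serpina5, Cyp2b23, Cyp2a22, Hsd3b1, Hao2 and Krt4 were those with 0 counts throughout. Of the annotated genes that overlap one of the 9, there were only 2 small RNA genes on the strand of Acoxl, neither with values in the table.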

How the data were processed

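Bulk RNA of sorted mouse muscle stem cells was read from 12 libraries, 2 for each genotype and day. Per the labels' protocols, SMART-Seq v4 cDNA was made into Nextera XT libraries and sequenced in single-end reads. The authors deposited estimated counts per gene, not normalised, a table of TPM, and log2 values that the authors had transformed and corrected for a batch that is not named in the sources used here. Per the submitters' processing notes, kallisto 0.46.1 was used, with GRCm38.p6 (mm10). The deposited estimated counts were rounded to whole numbers, which reads shared between near copies can split. All 36 value columns were mapped to libraries by their names.

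filterByExpr left 15890 of 30154 genes, all 9 members included. edgeR 4.0.16 (R 4.3.3, TMM, robust quasi-likelihood, 6 residual degrees of freedom) was fitted to all 12 libraries, and p-values got Benjamini-Hochberg adjustment over all genes tested. A gene is called at an adjusted p under 0.05. A count of 0 is taken to allow up to 3 counts in a library. The scripts were tested on simulated data. Alternatives used DESeq2 1.42.0, limma 3.58.1 on log2 TPM (pseudocount 1 or 0.1) and on the deposited log2 values, other filters, scalings and sets of libraries, the replicate block, and leaving out each library. Positions come from GENCODE M21 on GRCm38, which held 29729 of the identifiers, and promoters from RefSeq. The members, lists, alternatives and tests were chosen with earlier results of these data known. Named are the 9 members, Sesn1 and Sesn2. Of each list, the defining genes, the up to 4 most abundant and the up to 4 called with the smallest adjusted p could be named. The nearest 2 neighbours on each side and the 10 genes most alike in pattern could be named too. Sdr16c5, Awat1, Dmkn and Cyp2b19 enter by more than one of these ways.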

Additional observations from a re-analysis of the deposited data

Results flagged for a closer look

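The log2 fold change of Krt79 had opposite signs on 2 days. At day 0 the log2 fold change of knockout over wild type was -2.73, with both knockout libraries below both wild-type ones, and at day 21 by label it was 1.44, with both libraries labelled knockout above both labelled wild type. The day 21 value was not called (adjusted p = 0.354, edgeR) and ran from 0.61 to 3.61 with a library left out. The difference between these days was not tested, the day 0 value was part of how the gene was chosen, and Sesn2 went against the labels of 2 of the 4 libraries of day 21.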

How the results depend on the processing

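At days 0 and 7 all 199 and 197 values of the 9 transcripts under the alternatives were negative, as the choice of transcripts at or near 0 in knockout fixes. Their size depended on the scale used: Ly6d at day 7 went from -6.31 to -0.25 with the deposited log2 values, and Cyp2g1 at day 0 from -12.48 to -4.02 with limma on TPM plus 1. Of 183 at day 21, 129 were negative, 33 positive and 21 were 0. Of these 0 values 18 are of Serpina3j, which has no direction on that day, and 3 are of Cyp2g1, Hsd3b6 and Serpina3b without the second library labelled wild type. The threshold was passed by 2 and the sign changed in 10. Ly6d at day 21 became 0.12 with the deposited log2 values, 1.26 with limma on log2 TPM plus 0.1, with or without a filter, 0.34 with TPM plus 1, 0.28 with the replicate block, and between -1.11 and 4.75 with a library left out. Leaving out one library gave -5.06 to 3.38 for Sdr16c6, -4.88 to 2.51 for Acoxl and -7.56 to 2.29 for Akr1c18, the highest in each case without the second library labelled wild type. The number of members called at day 21 was 0 to 1 where a library was left out. The cause was not tested.

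Over all genes, calls at day 0 (4356) were 1495 with a log2 change of 1 or more required, 7317 with day 0 alone, and 1667 to 5166 with a library left out. At day 7 (280) they were 89 with that fold limit, 787 with DESeq2, 429 with day 7 alone, 1169 with days 0 and 7, 372 with no filter on counts, 125 and 110 with limma on TPM plus 1 and plus 0.1, 107 with limma on TPM plus 0.1 and no filter, 825 with the deposited log2 values and 15 to 619 with a library left out, the fewest without the first wild-type library of day 7. At day 21 (2, with 2259 at an unadjusted p under 0.05) they were 471 with DESeq2, 57 with no filter on counts, 23 with 10 counts in every library, 0 with day 21 alone (edgeR; 901 unadjusted), 0 and 19 with limma on TPM plus 0.1 with and without a filter, 176 with the deposited log2 values and 0 to 865 with a library left out, the most without the first labelled wild type. With 10 counts in every library 1 of the 9 was tested, and with day 21 alone 2 were.

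Replicate numbers are shared between groups, but the labels do not say that they pair samples. Differences between replicates 1 and 2 correlated across genes between genotypes at 0.0412, -0.143 and 0.0700 on days 0, 7 and 21. Low correlations of this kind cannot show that the samples were unpaired. The replicate block gave 4080, 204 and 1 calls. Among the skin lists, chosen after seeing the data to be recounted, DESeq2 called 8 sebaceous gland, 10 basal, 9 suprabasal and 12 hair follicle genes lower at day 0, and days 0 and 7 alone gave 10, 11, 9 and 12.

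The depth behind 0 counts allows 0.0718 to 0.111 CPM per library, for counting error only, so lower levels of the members in knockout were not detectable.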

Other observations

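Akr1c18 stood apart from the other 8 in the second library labelled wild type at day 21, where it had 456 counts (13.2 CPM, 19.4 TPM), above its 3.12 and 3.18 TPM in wild type at day 0. In the same library Krt8, a keratin of simple epithelium, had 517 counts, against 15, 240 and 33 in the others of that day. Csn3, a milk protein gene, had 36 counts there and 0, 2 and 1 in the others. Serpina3g had 306 counts there and 2, 8 and 46 in the others. These genes were picked after their values were seen, and no test was run on them.

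Gm28438, a gene model with the same on and off pattern at days 0 and 7, did not follow the 9 at day 21. It had 958 and 1178 counts in wild type at day 0 and 582 and 576 at day 7, with 0 in knockout on both days. At day 21 it had 585 and 600 counts under the wild-type label and 294 and 122 under the knockout label.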
